A study of Mus musculus with 12 samples.

Results

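The Nduf genes are the nuclear genes of mitochondrial complex I, and their levels were described in interscapular brown fat of mice with and without Cdk7. Members were all genes whose symbol starts with Nduf and that had at least 10 counts in 3 or more of the 12 libraries. Of 53379 gene IDs in the deposited tables, 51 carried such a symbol and 48 of them met the count minimum. The 48 comprised 38 subunit genes, 8 assembly factor genes (Ndufaf) and 2 processed pseudogenes, Ndufab1-ps and Ndufs6b. All 48 passed the filter on low counts and were tested. Ndufa13, a subunit gene, and the pseudogene Ndufb4c are listed at 0 counts in every library. The cause was not tested, so the 0 of Ndufa13 is not read as a level. The pseudogene Ndufa11b had at most 9 counts in a library.

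The study sequenced RNA from C57BL/6 mice of 12 weeks, killed at zeitgeber time 9, that is 9 h after lights on in a light-dark cycle. The 4 groups were wild type (WT) at room temperature, Cdk7 bKO (a brown-fat-specific knockout, KO) at room temperature, and WT and KO after 6 h of cold exposure with access to food. Each group had 3 libraries, and each library pooled the RNA of 2 like-treated mice (250 ng apiece, 500 ng per pool), so the spread reported is between pools. The controls were littermates labelled wild type. The Cre driver, the sex of the mice and the cold temperature are not given in the sources used here. Cdk7 is the kinase of the general transcription factor TFIIH and also activates other cyclin-dependent kinases.

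Complex I takes electrons from NADH, passes them to ubiquinone and pumps protons out of the mitochondrial matrix. It is built from modules: the N module oxidises NADH, the Q module reduces ubiquinone, and the membrane arm, named here after its mitochondrially encoded subunits (ND1, ND2, ND4 and ND5), pumps protons. A small group of Ndufs and Ndufv genes encodes core subunits, most of which carry the redox centres or hold the quinone site. Most of the other subunits are accessory, and Ndufaf proteins join the parts without staying in the finished enzyme. In brown fat the respiratory chain burns fuel while the uncoupling protein Ucp1 lets protons back in, which gives heat.

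The checks of the libraries were as follows. Levels are given as CPM, the reads of a gene relative to the size of its library. Cdk7 stood at 15.1 to 18 CPM in the 6 WT libraries and at 4.35 to 5.77 CPM in the 6 KO libraries, and no KO library reached a WT level. Gene count totals were 27609717 to 36792555 per library. Brown adipocyte markers summed to 21700 to 31900 CPM in the WT pools, against 15100 to 18800 CPM in KO libraries, so the labelled tissue was present in all 12. Skeletal muscle markers stood apart in a pair of libraries: WT at room temperature replicate 2 (905 CPM, summed over 15 genes) and KO at room temperature replicate 6 (1330 CPM), against 2.5 to 339 CPM in the other 10. Counts at room temperature over all subunits and over the Ndufaf genes are therefore given with and without this pair. For named Nduf calls at room temperature that ended there, the value without the pair is given. Counts at room temperature from the other lists and the cell markers are given with all libraries alone, so their dependence on the pair is not shown. CPM values here use TMM scaling, which sets each library against the bulk of its genes, so every difference is relative to the typical gene and not an amount of RNA per cell.

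The promoters of the members whose response to cold differed between genotypes are shown first, because the comparison of the cold responses turns on them. That comparison called 7 of the 48 members, while 10.6% of all genes were higher and 12.9% lower. Of the 7, Ndufaf4 alone still passed without the muscle-rich pair. RefSeq promoter sequences (GRCm38.p6) were found for 39 of the 48 members, in 41 entries, and the 250 bases before each start were searched on both strands. The motifs were the NRF1 palindrome, ETS as bound by GABPA (CCGGAAG), the oestrogen-related receptor element (AAGGTCA), the cAMP response core (TGACGTC) and YY1 (AAGATGGC). Below, a match is in capitals, on whichever strand it lies, and each sequence runs 5′ to 3′ toward the start of the gene. Ndufaf4 lies on the plus strand at chr4:24897833-24898082 with an NRF1 match 104 to 113 bases before the start. Ndufaf3, on the minus strand at chr9:108567437-108567686, had no match to any of the motifs.
Ndufaf4: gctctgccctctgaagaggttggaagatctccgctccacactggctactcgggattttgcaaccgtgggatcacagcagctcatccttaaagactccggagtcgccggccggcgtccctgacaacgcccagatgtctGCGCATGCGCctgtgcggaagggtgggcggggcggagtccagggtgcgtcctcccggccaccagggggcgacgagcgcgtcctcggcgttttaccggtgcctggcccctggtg
Ndufaf3: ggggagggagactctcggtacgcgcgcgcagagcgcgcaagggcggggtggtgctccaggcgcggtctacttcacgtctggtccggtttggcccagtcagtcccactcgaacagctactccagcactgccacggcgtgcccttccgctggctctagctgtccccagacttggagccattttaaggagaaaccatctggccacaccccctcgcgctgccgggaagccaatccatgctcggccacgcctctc

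Ndufb2 (plus strand, chr6:39592315-39592564) held a receptor element 175 to 181 bases before the start and a pair of overlapping cAMP cores, which together read as the full palindrome, 7 to 14 bases before it. Ndufs5 (minus strand, chr4:123718187-123718436) held an NRF1 match at 89 to 98 bases and a receptor element, on the other strand, at 222 to 228 bases.
Ndufb2: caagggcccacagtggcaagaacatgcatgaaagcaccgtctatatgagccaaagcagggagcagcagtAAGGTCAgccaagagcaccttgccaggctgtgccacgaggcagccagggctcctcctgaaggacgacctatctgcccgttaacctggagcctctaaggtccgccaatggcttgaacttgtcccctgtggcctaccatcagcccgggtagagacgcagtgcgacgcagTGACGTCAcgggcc
Ndufs5: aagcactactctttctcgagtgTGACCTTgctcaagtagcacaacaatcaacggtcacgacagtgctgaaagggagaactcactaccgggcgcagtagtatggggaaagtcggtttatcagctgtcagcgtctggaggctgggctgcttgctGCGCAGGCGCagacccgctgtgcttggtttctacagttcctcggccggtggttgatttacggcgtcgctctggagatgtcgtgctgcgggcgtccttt

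Of the remaining members with a differing cold response, Ndufa8 had an NRF1 match 21 to 30 bases before the start, Ndufs3 an ETS match at 21 to 27 bases, and Ndufaf7 none. The matches of Ndufa8 and Ndufs3 lie inside the annotated gene, which begins further upstream than the RefSeq start used. Over all Nduf promoters, NRF1 letters occurred in 8 of 41 entries (19.5%), against 3.74% of 32851 promoters of all genes. Those 8 entries are 7 genes, and the 5 with a cAMP core are 4 genes, since Ndufa5 has 2 overlapping windows that hold the same matches. The cAMP core was in 5 Nduf entries (12.2% against 2.78% of all), the ETS letters in 5 (12.2% against 6.91%), and the receptor element in 3 (7.32% against 4.08%). YY1 letters were in none of the 41 and in 1.56% of all promoters. These matches describe letters in the window and were not tested for binding. The promoters of all genes were not limited to the genes tested here, whereas every Nduf member was tested, so the sets are unlike. Many Nduf genes also share a start region with another gene: 18 of 48 (37.5%) had a gene on the opposite strand starting within 500 bases, against 16% of 15194 tested genes. Examples were Ndufs1 and Eef1b2, with starts 8 bases apart, Ndufa7 and Rps28 (10 bases) and Ndufs6 and Mrpl36 (29 bases).

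Per kilobase of exon, subunit genes stood far above assembly factor genes. In WT at room temperature the 38 subunits had a median of 131 CPM per kb and the 8 assembly factors a median of 9.675 CPM per kb. Ndufa4 was the highest, at 383 ± 48.1 CPM per kb (SD, n = 3). Ndufa1 was at 356 ± 57.9 CPM per kb, which differed from Ndufa4 by less than either SD, and Ndufb3 was at 297 ± 51.5 CPM per kb. Ndufa4l2, the paralogue of Ndufa4, was the lowest subunit at 4.14 ± 0.938 CPM per kb. Among assembly factors Ndufaf1 led at 29.2 ± 1.51 CPM per kb and Ndufaf2 was lowest at 5.93 ± 0.5 CPM per kb. The spread between pools was small, with a median coefficient of variation over subunits of 9.91% in WT at room temperature, 8.54% in KO at room temperature, 5.64% in WT in the cold and 7.68% in KO in the cold. Ndufa10 varied least within groups, and Ndufc1 and Ndufb1-ps varied most among the subunits. Both pseudogenes stayed under 2 CPM in every library and passed the test in no comparison.

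At room temperature, most complex I subunit genes were lower in KO brown fat than in WT relative to the typical gene. Of the 38 subunits, 23 were lower, 1 was higher and 14 did not pass the test (edgeR quasi-likelihood test, adjusted p under 0.05 over 15208 genes), while 21% of all genes were lower and 19.3% higher. The median log2 difference was -0.34 over the subunits and 0.00 over all genes. In bulk tissue, fewer brown adipocytes and less of these transcripts per adipocyte cannot be told apart. Summed over the 38 subunits, the level was 8160, 8780 and 8300 CPM in the WT pools, against 7180, 6710 and 6600 CPM in the KO pools. On this TMM scale all KO pools lay below all WT pools. As a percent of nuclear-encoded counts, KO replicate 4 (1.21%) was not below WT replicate 1 (1.20%). As a percent of all gene counts, WT replicate 1 (0.691%) was below all KO pools (0.727 to 0.787%). By gene, 25 of the 38 subunits were lower and 1 higher without overlap of the groups, as were 24.9% and 23.9% of all genes. Without the pair of libraries richest in muscle markers, 6 subunits were lower, none was higher and the median was -0.24, with 2 pools in each group. In that fit 1946 of 15386 genes were lower and 1620 higher, so 6 of 38 is near the background. The 6 were Ndufa3, Ndufa4, Ndufa12, Ndufb8, Ndufb10 and Ndufs1. With library totals 1 subunit was lower (median -0.13, with the median gene at 0.22), with totals of nuclear-encoded counts 5 were lower (median -0.19), and without KO replicate 6 alone 14 were lower. Over all genes, in the same order, 1267 of 15208, 1888 of 15085 and 2514 of 15477 were lower.

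**Figure D1:**
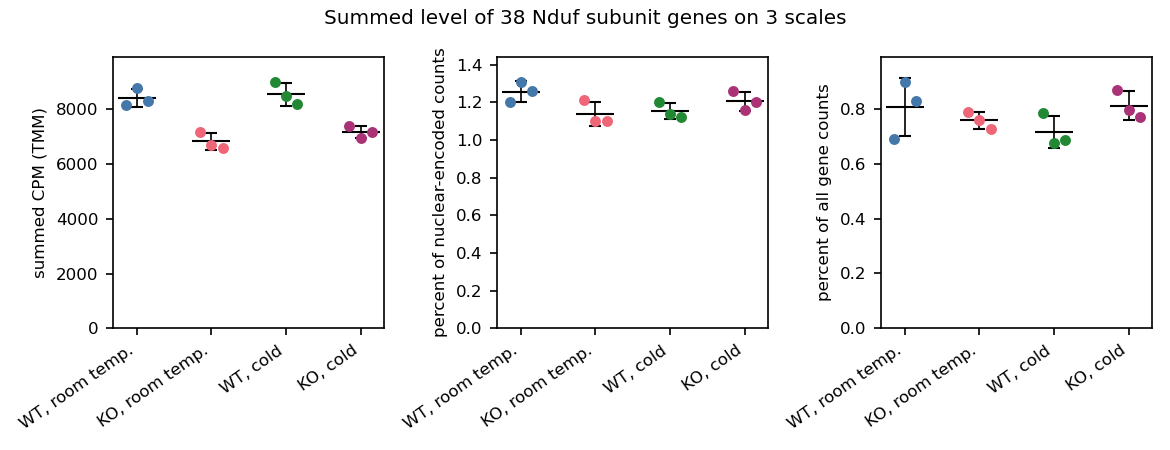
Summed level of the 38 Nduf subunit genes in each of the 12 libraries (points; lines are group means with SD, n = 3) as TMM-scaled CPM, as a percent of nuclear-encoded counts and as a percent of all gene counts. On the CPM scale both KO groups lie below both WT groups, while as a percent of nuclear-encoded counts KO in the cold (1.16 to 1.26%) is not below WT in the cold (1.12 to 1.20%).

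After 6 h in the cold the count was the same and the genes differed in part. Relative to WT in the cold, 23 subunits were lower in KO, 1 was higher and 14 did not pass, with 27.8% of all genes lower and 25.9% higher. The median log2 difference over subunits was -0.28, against 0.01 over all genes. Summed subunit levels were 9010, 8480 and 8180 CPM in the WT pools, against 7390, 6940 and 7170 CPM in the KO pools, without overlap. By gene, 23 were lower and 1 higher without overlap, as were 32.1% and 30.6% of all genes. The direction in the cold depends on the scale: with library totals alone the median over all genes moved to 0.45 and over subunits to 0.16. The subunits stood 0.29 below the typical gene on either scale. A change of scale shifts all genes by about the same amount, so this distance could hardly change and is no check. Without the libraries richest in muscle markers, 27 of the 28 Nduf calls in the cold were kept. Both of those libraries are from room temperature, so that fit removed none of the pools compared here and is no check of them.

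**Figure D2:**
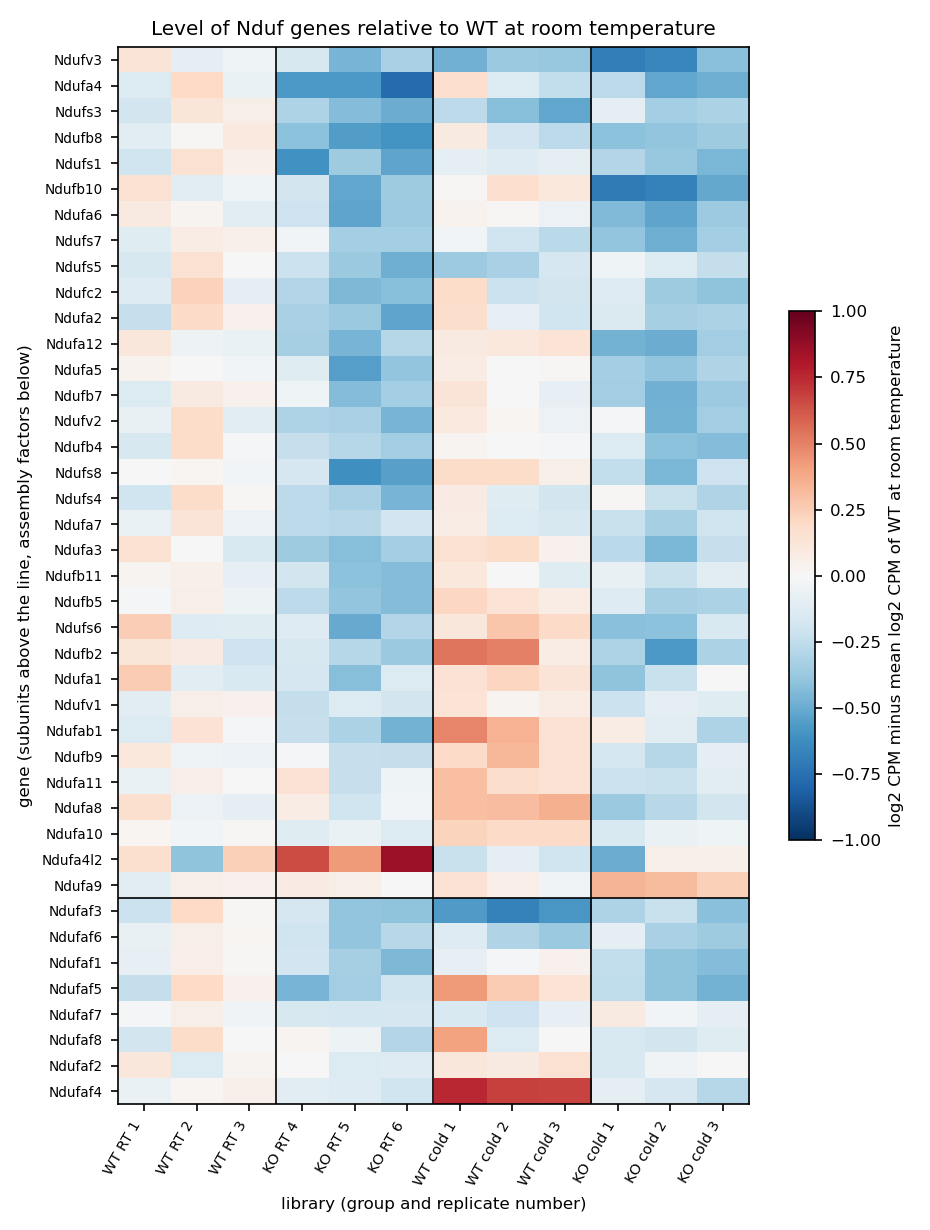
Level of the 33 Nduf subunits called in any comparison (above the line) and of the 8 assembly factors (below it) in each library, as log2 CPM minus the mean log2 CPM of WT at room temperature. Most subunit rows are blue in the 6 KO libraries, Ndufa9 and Ndufa4l2 are exceptions, and Ndufaf4 is red in the 3 WT libraries from the cold alone; colours are relative to the typical gene, and with library totals the genotype difference of the subunit median in the cold changes sign.

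By role, the core subunits were lower in 4 of 7 cases at room temperature and in 5 of 7 in the cold. Most of them bind the flavin, the iron-sulphur clusters or ubiquinone. Their medians were -0.37 and -0.24, beside 21% and 27.8% of all genes lower. Without the muscle-rich pair, Ndufs1 alone of the core subunits was still called at room temperature. Ndufs1, the largest subunit, which carries iron-sulphur clusters in the N module, was at 548, 698 and 652 CPM in the WT pools, against 413, 493 and 436 CPM in the KO pools (both at room temperature). The groups did not overlap, and the log2 difference was -0.50 ± 0.10 (SE, adjusted p = 0.00081). In the cold Ndufs1 was at 593, 575 and 590 CPM in the WT pools, against 515, 483 and 459 CPM in the KO pools, a difference of -0.27 ± 0.10 (adjusted p = 0.029) that turned to 0.17 with library totals. Ndufs8, which passes electrons toward ubiquinone, was lower at both temperatures, at log2 differences of -0.43 ± 0.11 and -0.44 ± 0.11. Its value at room temperature was -0.36 (adjusted p = 0.067) without the muscle-rich pair. With library totals its difference in the cold was -0.01.

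Ndufv2, the iron-sulphur partner of Ndufv1 in the N module, was at -0.37 ± 0.11 at room temperature and -0.28 ± 0.11 in the cold, both past the threshold. Without the muscle-rich pair its value at room temperature was -0.23 and no longer passed (adjusted p = 0.24), and the call also ended without either library of the pair alone. Ndufv1, which binds NADH and the flavin, passed in the cold (-0.22 ± 0.08) and missed at room temperature (-0.19 ± 0.08, adjusted p = 0.072). Ndufs7, at the quinone site, passed in the cold (-0.24 ± 0.10, adjusted p = 0.046) and missed at room temperature (-0.23 ± 0.10, adjusted p = 0.078). The sizes of Ndufv1 and Ndufs7 were alike at both temperatures, and in the cold their direction and that of Ndufv2 turned with library totals, to 0.21, 0.19 and 0.16.

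Ndufs3, the Q module subunit that joins early in assembly, had its genotype difference at room temperature alone. Its levels were 194, 240 and 230 CPM in the WT pools, against 178, 163 and 156 CPM in the KO pools (both at room temperature). In the cold they were 184, 164 and 154 CPM in the WT pools, against 207, 174 and 177 CPM in the KO pools. WT at room temperature had the highest mean, yet its lowest pool (194 CPM) was below the highest KO pool from the cold (207 CPM). The other 3 groups overlapped each other. The difference was -0.42 ± 0.10 (adjusted p = 0.0042) at room temperature and 0.15 ± 0.10 (adjusted p = 0.22) in the cold, and without the muscle-rich pair it was -0.31 at room temperature (adjusted p = 0.092).

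Among the modules, the N module had the most lower calls at room temperature, 9 of its 10 genes, and 6 of 10 in the cold, where 21% and 27.8% of all genes were lower. Without the muscle-rich pair, Ndufa12 and Ndufs1 alone of the N module were lower at room temperature. In that fit 1946 of 15386 genes were lower. In the Q module 3 of 6 were lower at each temperature, and Ndufa9 was higher in the cold. The ND5 module went from 3 of 6 lower at room temperature to 5 of 6 in the cold, ND4 from 4 to 3 of 6, and ND2 from 2 to 3 of 6, of which 2 of 6 is not far from the share over all genes. The small ND1 module, with Ndufa3 and Ndufa8 measured, had 1 lower call at room temperature and 2 in the cold. Without the muscle-rich pair, the calls kept at room temperature in the other modules were Ndufb10 in ND4, Ndufb8 in ND5 and Ndufa3 in ND1. No difference between modules was tested.

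Of the 38 subunits, 15 were lower in KO at both temperatures, which share no library: Ndufa3, Ndufa4, Ndufa5, Ndufa6, Ndufa12, Ndufab1, Ndufb4, Ndufb5, Ndufb7, Ndufb8, Ndufb10, Ndufs1, Ndufs6, Ndufs8 and Ndufv2. The 6 named above were still called at room temperature without the muscle-rich pair. Ndufa5 (-0.32, adjusted p = 0.074) and Ndufab1 (-0.20, adjusted p = 0.30) were among those that no longer passed. A further 8 were lower at room temperature alone and another 8 in the cold alone, and 5 passed at neither, among them Ndufb3, Ndufb6 and Ndufc1. Over all genes 21% were lower at room temperature and 27.8% after cold. The share of all genes lower at both, at most 21%, was not counted, nor were the shares lower at 1 temperature alone. Whether these counts are particular to the subunits was therefore not tested. Passing at 1 temperature and missing at the other is not a test of the difference, which is given below.

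**Figure D3:**
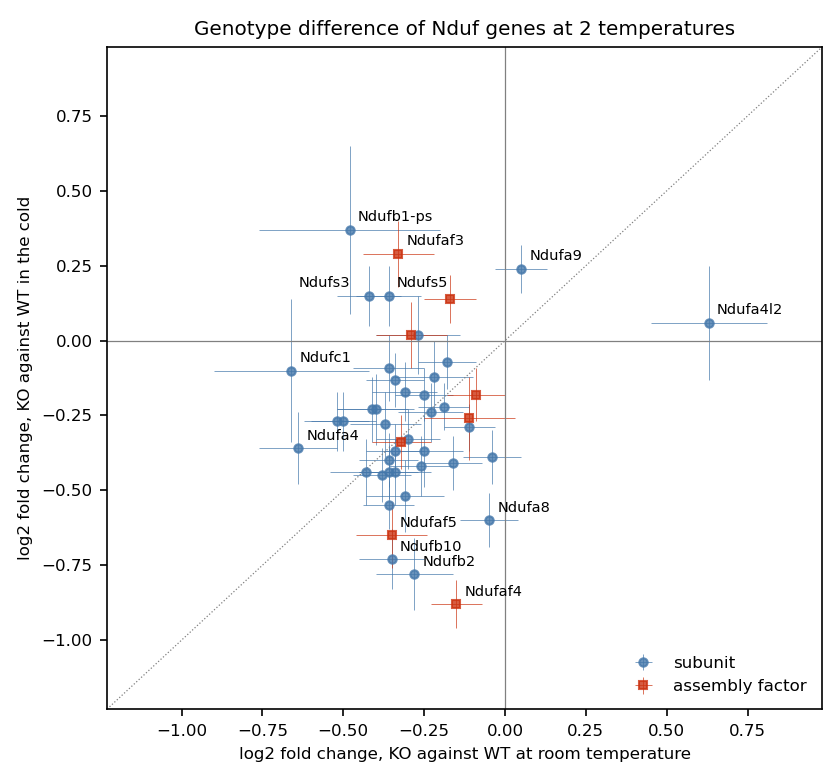
Log2 difference of KO against WT at room temperature (x axis) and in the cold (y axis) for 38 subunits (blue) and 8 assembly factors (red), with SE bars and the line of equal difference. Most genes lie below 0 on both axes, Ndufaf4, Ndufb2 and Ndufa8 are lower mainly in the cold, and Ndufa9 and Ndufa4l2 lie right of 0; with library totals the points shift up, and the subunit median in the cold becomes 0.16.

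Single accessory subunits stood out. Ndufb10, of the ND4 module, was at 269, 226 and 235 CPM in the WT pools, against 214, 169 and 190 CPM in the KO pools (both at room temperature), and at 245, 272 and 261 CPM in the WT pools, against 149, 152 and 170 CPM in the KO pools in the cold. The KO pools were lower without overlap at both temperatures, at -0.35 ± 0.10 and, 1.66-fold lower, at -0.73 ± 0.10 (adjusted p = 1.7e-05). The call in the cold was kept under every alternative run. Ndufb8, an ND5 module subunit, was at 275, 299 and 317 CPM in the WT pools, against 223, 201 and 196 CPM in the KO pools (both at room temperature), a difference of -0.52 ± 0.10 (adjusted p = 0.00051).

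Ndufb2, a small ND5 module subunit, was at 34.4, 33.5 and 27.4 CPM in the WT pools, against 28.3, 25.9 and 24.4 CPM in the KO pools (both at room temperature), where the groups overlapped. In the cold it was at 45.8, 44.7 and 33.3 CPM in the WT pools, against 25.5, 21.2 and 25.4 CPM in the KO pools, without overlap, 1.72-fold lower (-0.78 ± 0.12, adjusted p = 7.5e-05). Its exons overlap those of Gm42420 on the same strand over 2.58% of their length, so a small share of its reads is uncertain. Ndufa8, of the ND1 module, was at 199, 171 and 166 CPM in the WT pools, against 188, 155 and 175 CPM in the KO pools (both at room temperature), with overlap. In the cold Ndufa8 was at 219, 221 and 228 CPM in the WT pools, against 138, 147 and 157 CPM in the KO pools, a difference of -0.60 ± 0.09 (adjusted p = 6.2e-05).

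Among the accessory subunits of the N module, Ndufa12, which seals the module to the rest of the arm, was at 115 to 130 CPM in WT and 87 to 98.7 CPM in KO at room temperature, and at 128 to 132 CPM and 85.2 to 94.5 CPM in the cold. The genotypes did not overlap, at log2 differences of -0.36 ± 0.08 and -0.55 ± 0.08, and the sign held on library totals (-0.12 in the cold). Ndufs6, a zinc-binding subunit, was at -0.31 ± 0.12 and -0.52 ± 0.12, and Ndufa6 at -0.36 ± 0.09 and -0.44 ± 0.09, with -0.08 and -0.01 on library totals in the cold. At room temperature neither passed without the muscle-rich pair (Ndufs6 -0.38, adjusted p = 0.074, and Ndufa6 -0.35, adjusted p = 0.052). Ndufs4, whose loss is a known cause of complex I deficiency, was lower at room temperature (-0.36 ± 0.11) and did not pass in the cold (-0.09 ± 0.11, adjusted p = 0.51), as did Ndufa2 (-0.41 ± 0.11 and -0.23 ± 0.11) and Ndufa7 (-0.25 ± 0.09 and -0.18 ± 0.09). Without the muscle-rich pair these calls at room temperature ended: Ndufs4 was at -0.21 (adjusted p = 0.26), Ndufa2 at -0.26 (adjusted p = 0.16) and Ndufa7 at -0.21 (adjusted p = 0.17).

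In the membrane arm, Ndufa10 was the least variable gene, at 603 to 624 CPM in WT and 560 to 588 CPM in KO at room temperature. After cold its range was 705 to 720 CPM in WT and 555 to 599 CPM in KO, lower in KO by TMM (-0.29 ± 0.08, adjusted p = 0.0044) and at 0.15 on library totals. Ndufa1 (-0.37 ± 0.12), Ndufa11 (-0.39 ± 0.09) and Ndufb9 (-0.41 ± 0.09) also passed in the cold alone, and on library totals were at 0.06, 0.05 and 0.03. Ndufb5 was lower at both temperatures (-0.36 ± 0.09 and -0.40 ± 0.09), as were Ndufb7 (-0.26 ± 0.10 and -0.42 ± 0.10), Ndufb4 (-0.30 ± 0.10 and -0.33 ± 0.10) and, in the ND1 module, Ndufa3 (-0.38 ± 0.09 and -0.45 ± 0.09). On library totals in the cold these 4 were at 0.04, 0.02, 0.11 and -0.01. Without the muscle-rich pair Ndufa3 kept its call at room temperature, while Ndufb5 (-0.30, adjusted p = 0.066), Ndufb7 (-0.18, adjusted p = 0.33) and Ndufb4 (-0.17, adjusted p = 0.31) did not. Ndufc1 had the lowest value of any subunit at room temperature, -0.66 ± 0.24, and missed the threshold (adjusted p = 0.059), with 52.6, 91.2 and 68.4 CPM in the WT pools and 46.9, 49.2 and 38.7 CPM in those of KO. Ndufb1-ps had the highest value of any subunit in the cold, 0.37 ± 0.28, and missed it too (adjusted p = 0.29).

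Ndufa9, a Q module subunit that binds a nucleotide cofactor, went the other way. Its levels were 282, 317 and 313 CPM in the WT pools, against 322, 317 and 302 CPM in the KO pools (both at room temperature), with overlap. In the cold they were 336, 318 and 297 CPM in the WT pools, against 384, 379 and 359 CPM in the KO pools, where all KO pools were above all WT pools. The difference was 0.24 ± 0.08 (adjusted p = 0.023), and it no longer passed when any of 4 single pools from the cold was left out.

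Ndufa4 is counted here by its name, although its protein belongs to cytochrome c oxidase (complex IV) rather than to complex I, and Ndufa4l2 encodes a paralogue known as a target of hypoxia signalling. Ndufa4 was at 479, 604 and 504 CPM in the WT pools, against 354, 354 and 308 CPM in the KO pools (both at room temperature). It was 1.56-fold lower in KO, without overlap (-0.64 ± 0.12, adjusted p = 0.00047), and it was the only Nduf call at room temperature kept under every alternative. In the cold Ndufa4 was at 592, 478 and 443 CPM in the WT pools, against 439, 368 and 375 CPM in the KO pools, a difference of -0.36 ± 0.12 (adjusted p = 0.018), with 0.08 on library totals.

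Ndufa4l2 was at 4.98, 3.36 and 5.26 CPM in the WT pools, against 7.01, 5.97 and 8.05 CPM in the KO pools (both at room temperature), 1.55-fold higher in KO (0.63 ± 0.18, adjusted p = 0.012). It was the 1 subunit with a higher call. Without the muscle-rich pair the difference was 0.34 (adjusted p = 0.23), and WT replicate 2, the lowest WT pool for Ndufa4l2, is 1 of that pair. In the cold it was at 3.82, 4.17 and 3.87 CPM in the WT pools, against 3.16, 4.64 and 4.62 CPM in the KO pools, with overlap (0.06 ± 0.19).

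Of the 8 assembly factors, 4 were lower at room temperature (Ndufaf1, Ndufaf3, Ndufaf5 and Ndufaf6) and none was higher, beside 21% of all genes lower and 19.3% higher, with a median of -0.23. In the cold 3 were lower (Ndufaf1, Ndufaf4 and Ndufaf5) and Ndufaf3 was higher, with a median of -0.22 that became 0.22 on library totals. Over all genes 27.8% were lower there and 25.9% higher, so 3 of 8 is near the background. At room temperature none of the 8 passed without the muscle-rich pair, and only 1 of 8 was lower without WT replicate 2, WT replicate 3 or KO replicate 5.

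Ndufaf1, which helps to build the membrane arm, was at 41.4, 45.9 and 44.3 CPM in the WT pools, against 38.4, 34.9 and 32.1 CPM in the KO pools (both at room temperature), and at 41.4, 43.2 and 45.2 CPM against 36.9, 33.1 and 32.4 CPM in the cold. KO was lower without overlap at both temperatures, at -0.32 ± 0.09 and -0.34 ± 0.09, though the value in the cold was 0.10 on library totals and that at room temperature was -0.23 (adjusted p = 0.12) without the muscle-rich pair. Ndufaf5, which hydroxylates an arginine of the Ndufs7 protein, was at 21.5, 29.2 and 26.1 CPM in the WT pools, against 18.4, 20 and 22.1 CPM in the KO pools (both at room temperature), and at 34.1, 30.3 and 27.9 CPM against 21.3, 19.2 and 18.3 CPM in the cold. Its differences were -0.35 ± 0.11, with overlap between the pools, and -0.65 ± 0.11 (adjusted p = 0.00017), without. The first was -0.32 (adjusted p = 0.09) without the muscle-rich pair.

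Ndufaf6, needed for the ND1 stage, was at 10.5, 11.5 and 11.2 CPM in the WT pools, against 9.63, 8.42 and 9.1 CPM in the KO pools (both at room temperature), a difference of -0.29 ± 0.11 (adjusted p = 0.047), and -0.26 (adjusted p = 0.22) without the muscle-rich pair. It passed in no other comparison. Ndufaf2, a paralogue of the subunit Ndufa12 that acts late in assembly, was between 15.8 and 19.5 CPM in all 12 libraries and passed in none. Ndufaf8, a partner of Ndufaf5, was between 6.75 and 10.9 CPM and passed in none either. Ndufaf7, a protein methyltransferase, did not pass in either genotype comparison (-0.17 ± 0.08 and 0.14 ± 0.08).

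Ndufaf4, an early-acting assembly factor that works with Ndufaf3, had the largest difference of any Nduf gene in the cold. At room temperature it was at 59.4, 63.3 and 64.5 CPM in the WT pools, against 57.8, 57.1 and 54.3 CPM in the KO pools. In the cold it was at 105, 100 and 99.8 CPM in the WT pools, against 58.7, 55.6 and 51.2 CPM in the KO pools. The 3 WT pools from the cold stood above all 9 others, and the groups at room temperature were close but did not overlap. KO was 1.84-fold lower in the cold (-0.88 ± 0.08, adjusted p = 1.7e-07), and -0.15 ± 0.08 at room temperature did not pass (adjusted p = 0.14).

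Ndufaf3 went the opposite way. It was at 12.9, 17.2 and 15.1 CPM in the WT pools, against 13.3, 11.4 and 11.3 CPM in the KO pools (both at room temperature), with overlap. In the cold it was at 10.1, 9.39 and 9.98 CPM in the WT pools, against 12.1, 12.8 and 11.2 CPM in the KO pools, where all KO pools were the higher ones. KO was lower at room temperature (-0.33 ± 0.11, adjusted p = 0.027) and higher in the cold (0.29 ± 0.11, adjusted p = 0.042). At room temperature the value was -0.18 (adjusted p = 0.35) without the muscle-rich pair, and in the cold the call was lost in 6 of 12 leave-one-out fits.

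**Figure D4:**
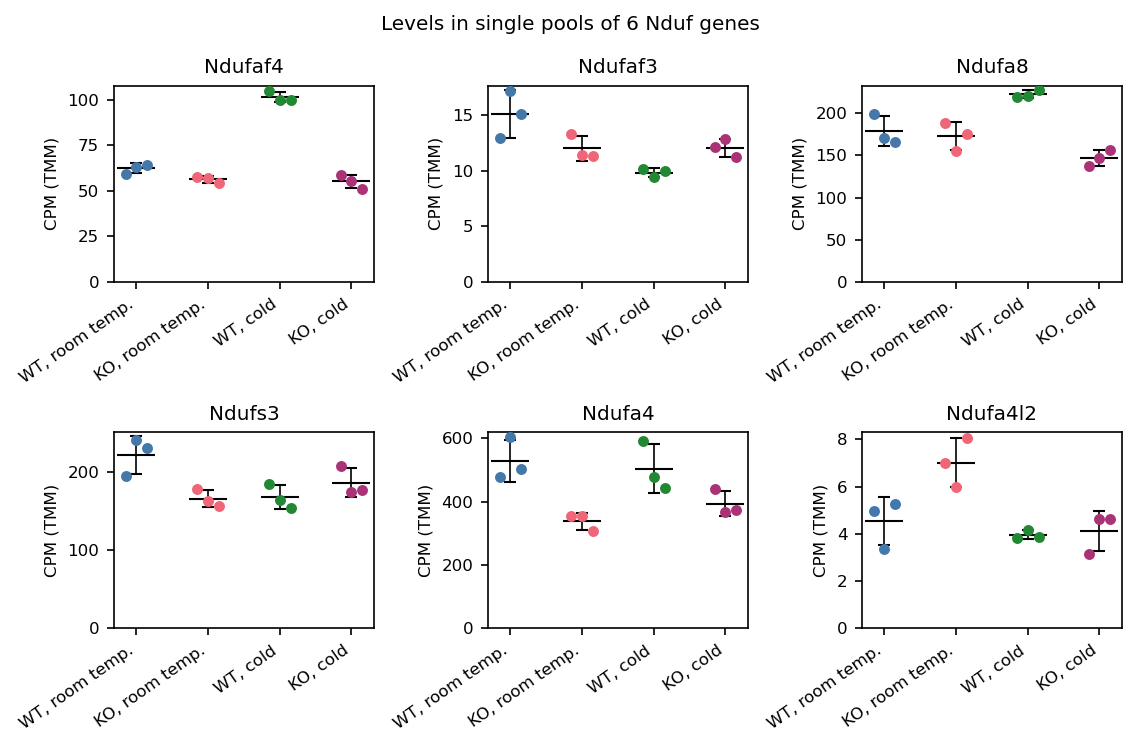
CPM of 6 Nduf genes in each library (points; lines are means with SD, n = 3 pools per group). Ndufaf4 is high in WT in the cold alone (99.8 to 105 CPM), Ndufaf3 is low there (9.39 to 10.1 CPM), Ndufa8 separates the genotypes in the cold, Ndufs3 and Ndufa4 have their highest mean in WT at room temperature, and Ndufa4l2 is highest in KO at room temperature.

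In WT, 6 h of cold left most complex I genes near their level at room temperature. Of 38 subunits 4 rose, 3 fell and 31 did not pass, while 23% of all genes were higher and 23.2% lower. The median was 0.02 over subunits and -0.03 over all genes. Without overlap of the groups, 7 subunits were higher and 3 lower in the cold, as were 27.6% and 27.9% of all genes. The 4 that rose were Ndufa8 (0.32 ± 0.09), Ndufb2 (0.38 ± 0.12), Ndufa10 (0.20 ± 0.08) and Ndufab1 (0.33 ± 0.11), the acyl carrier protein of mitochondria. None of these 4 passed on library totals, where the median gene fell by 0.23, and without WT replicate 3 at room temperature no subunit rose.

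The 3 that fell were Ndufv3, Ndufs3 and Ndufs5, and all 3 also fell on library totals. Ndufv3, an accessory N module subunit, was at 273, 235 and 243 CPM at room temperature, then 179, 193 and 192 CPM in the cold, without overlap (-0.42 ± 0.10, adjusted p = 0.0025). Ndufs3 fell by 0.40 on the log2 scale (SE 0.10, adjusted p = 0.004). Ndufs5, an accessory ND2 module subunit, was at 25.2, 31.3 and 28.1 CPM at room temperature, then 21.8, 22.4 and 25 CPM in the cold (-0.29 ± 0.10, adjusted p = 0.024). Among assembly factors Ndufaf4 rose 1.63-fold (0.71 ± 0.08, adjusted p = 1.5e-06), Ndufaf3 fell 1.54-fold (-0.62 ± 0.11, adjusted p = 0.00031) and 6 did not pass. Ndufaf3, Ndufaf4, Ndufs3 and Ndufv3 were called under every alternative run.

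In KO, the cold changed 2 Nduf genes. Of 38 subunits Ndufa9 rose, Ndufa4l2 fell and 36 did not pass, while 7.29% of all genes were higher and 7.56% lower. None of the 8 assembly factors passed with edgeR. The subunit median was 0.05, against -0.02 over all genes. Without overlap, 4 subunits were higher and 2 lower, as were 15.3% and 17.4% of all genes. Ndufa9 rose by 0.25 ± 0.08 (adjusted p = 0.049) and passed in 8 of 22 alternatives. Ndufa4l2 fell 1.70-fold (-0.76 ± 0.18, adjusted p = 0.011), from 5.97 to 8.05 CPM down to 3.16 to 4.64 CPM, and lost the call without KO replicate 6 at room temperature or KO replicate 1 in the cold. Ndufaf4 stayed between 51.2 and 58.7 CPM in all 6 KO pools (-0.03 ± 0.08, adjusted p = 0.83).

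**Figure D5:**
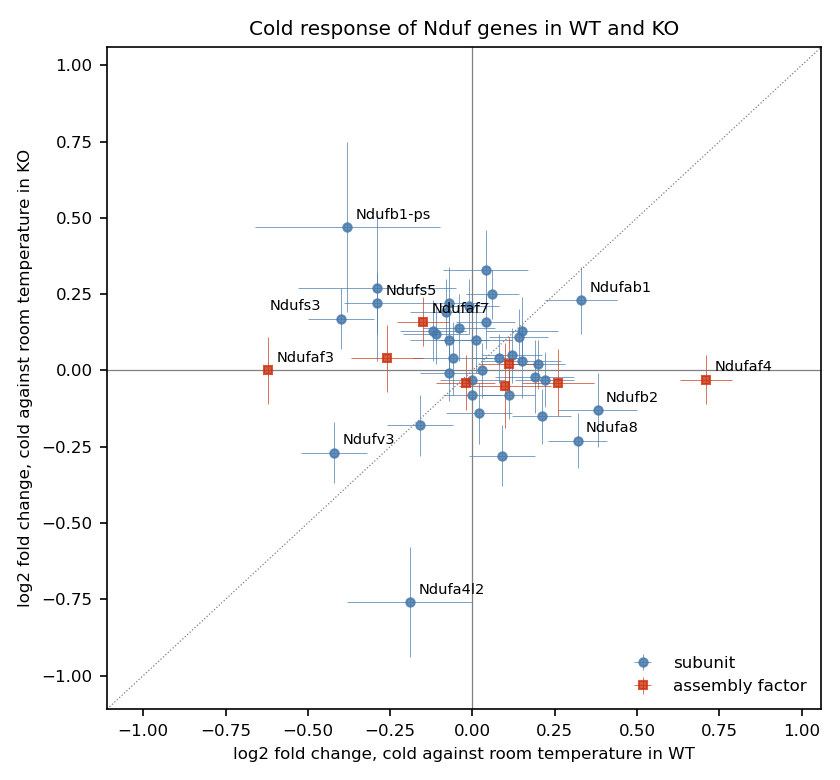
Log2 change with 6 h of cold in WT (x axis) and in KO (y axis) for 38 subunits (blue) and 8 assembly factors (red), with SE bars and the line of equal change. Most genes lie near 0 on both axes, while Ndufaf4 (0.71 in WT, -0.03 in KO) and Ndufaf3 (-0.62 in WT, 0.00 in KO) lie far along the x axis.

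The difference of both cold responses (the change in KO minus the change in WT) was tested as an interaction. Of 38 subunits 2 were higher, 2 lower and 34 did not pass, while 10.6% of all genes were higher and 12.9% lower. Of 8 assembly factors 2 were higher and 1 lower. Ndufaf4 had the largest size among those called, -0.74 ± 0.11 (adjusted p = 0.00025), and it alone was called under every alternative. Ndufaf3 differed by 0.62 ± 0.16 (adjusted p = 0.011), Ndufs3 by 0.57 ± 0.15 (adjusted p = 0.0098) and Ndufs5 by 0.51 ± 0.14 (adjusted p = 0.016). In these 3 genes WT fell in the cold and KO did not pass. Ndufa8 differed by -0.55 ± 0.13 (adjusted p = 0.007), Ndufb2 by -0.50 ± 0.17 (adjusted p = 0.046) and Ndufaf7 by 0.31 ± 0.11 (adjusted p = 0.047). Without the muscle-rich pair Ndufaf4 was -0.78 (adjusted p = 0.0023) and the other 6 no longer passed, with Ndufa8 at -0.51 (adjusted p = 0.052).

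Other genes of complex I were read from a list, on the TMM scale throughout (library totals shift all values between genotypes up by about the shift of the median gene given above). Beside the counts between genotypes stand the shares over all genes, 21% lower and 19.3% higher at room temperature and 27.8% lower and 25.9% higher in the cold. The 13 tested assembly factors not named Nduf had 6 lower and none higher in KO at room temperature, and 7 lower and 3 higher in the cold, where the share higher is near the background. Dmac2, a distal membrane arm factor, was at a mean of 43.4 CPM in the WT pools, against 39.6 in KO at room temperature, then 71.4 in WT and 33 in KO in the cold. It rose in WT (0.72 ± 0.12) and the responses differed by -0.98 ± 0.17 (adjusted p = 0.0011). Timmdc1, an inner membrane factor, also rose in WT (0.24 ± 0.07) and differed by -0.48 ± 0.10. Nubpl, which delivers iron-sulphur clusters, fell in WT (-0.46 ± 0.15) and was higher in KO in the cold (0.82 ± 0.15), and Foxred1 did the same (-0.42 ± 0.08 and 0.25 ± 0.08). Tmem126a, Tmem126b and Tmem186, which act in assembly of the membrane arm, were lower in KO at both temperatures, Tmem186 at -0.52 ± 0.08 and -0.92 ± 0.08.

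Of the 7 mitochondrially encoded subunits 5 were tested, since mt-Nd3 and mt-Nd4l were near 0. In KO, mt-Nd2 (-0.50 ± 0.18) and mt-Nd5 (-0.73 ± 0.24) were lower at room temperature, and mt-Nd1, mt-Nd2, mt-Nd4 and mt-Nd5 were lower in the cold, mt-Nd5 at -1.26 ± 0.24. The remaining gene tested, mt-Nd6, went the other way in the cold. It was at 0.44 in KO against WT, without overlap of the groups, and did not pass. With cold in KO it rose by 0.88 and passed. Nuclear subunits of complexes II to V moved much as the Nduf subunits did: 24 of 37 were lower and 1 higher in KO at room temperature (median -0.37), and 23 lower and 1 higher in the cold (median -0.27). No test between the lists was made.

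Regulators of respiratory chain genes, a list of 10, had 5 lower and 3 higher in KO at room temperature (21% and 19.3% over all genes) and 7 lower in the cold (27.8%). Esrra and Esrrg, the oestrogen-related receptors, were lower at both temperatures (Esrra -0.49 ± 0.09 and -1.10 ± 0.09, Esrrg -0.99 ± 0.08 and -1.29 ± 0.09). Gabpa, which binds the ETS letters searched above, was at -0.66 ± 0.08 and -0.64 ± 0.08, Tfam, the mitochondrial DNA transcription factor, at -0.54 ± 0.09 and -0.76 ± 0.09, and the coactivator Ppargc1b at -1.25 ± 0.12 and -1.27 ± 0.12. Ppargc1a, the cold-responsive coactivator, rose in WT in the cold (2.48 ± 0.41), from a mean of 198 to 1100 CPM, while KO had 552 CPM at room temperature, then 494 CPM in the cold. Its responses differed by -2.64 ± 0.56 (adjusted p = 0.011), and those of Esrra by -0.61 ± 0.13 and of Pprc1, a relative of Ppargc1a, by -0.95 ± 0.21. Nrf1, whose letters were the most frequent of those searched in the Nduf entries but not over all promoters, was between means of 17.7 and 20 CPM and passed in no comparison, nor did Yy1. Gabpb1, the partner of Gabpa, was higher at room temperature (0.28 ± 0.10).

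Markers of other cells moved with genotype too, to be read beside the shares over all genes just given. All 10 macrophage markers were higher in KO at both temperatures, and their sum was 69.1 to 104 CPM in the 6 WT libraries and 234 to 371 CPM in the 6 KO libraries. Endothelial markers were higher in 6 of 7 cases at each temperature and fibroblast markers in 3 of 6. Brown adipocyte markers were lower in 7 of 9 cases at room temperature and in 5 of 9 in the cold. The part of this change of cell markers in the Nduf differences was not tested. No defining marker of muscle passed in any comparison, yet their sum ranged from 2.5 to 1330 CPM. The fits without the pair of libraries named above also have fewer pools at room temperature. The part of muscle in the values at room temperature was therefore not tested.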

How the data were processed

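RNA was extracted from whole interscapular brown fat of mice and 12 libraries (3 pools of 2 mice in each of 4 groups) were sequenced. STAR, HTSeq and GRCm38 are named in the submitters' processing notes, without roles. The deposited tables hold whole-number read counts per gene, with the reverse-strand setting in the tables' names; the library kit is not given in the sources used here. Reads aligned to several places were 26.6 to 30.2% of each table and were not counted, so genes with near copies (Ndufab1, Ndufs6, Ndufa11, Ndufb4) are uncertain, as are same-strand overlaps of Ndufb2, Ndufb8 and Ndufb9. The rows for reads without a gene (no feature 1.64 to 2.26%, ambiguous 1.07 to 1.37%, not aligned 1.12 to 1.86%) were left out of totals and tests. Coordinates and biotypes are from GENCODE vM21 (GRCm38).

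Genes with too few counts were removed with filterByExpr, which left 15208 of 53379, and TMM scaling was used (factors 0.798 to 1.18). The test was edgeR 4.0.16 (R 4.3.3), quasi-likelihood, fitted over all 12 libraries with 4 groups, with Benjamini-Hochberg adjustment over all genes tested, and the biological coefficient of variation was 13.6%. SE is the log2 difference over the square root of F. The scripts were tested on simulated data. Members with the Nduf symbol were named by rule: core subunits, Ndufa4, Ndufa4l2, Ndufab1 and all assembly factors, plus the 4 lowest and 4 highest per comparison. Further accessory subunits were named after their values were seen. The 2 pseudogenes were split from the subunits after the files were seen, and Ndufb1-ps is annotated as a bidirectional promoter lncRNA but kept with the subunits. Of the other lists, up to 4 members with the smallest p per comparison were named, and the regulators in full. The values of 1 subunit gene are not reported here. Members and lists were chosen with earlier results of these data known. Alternatives were median-ratio size factors, library totals alone, other filters, DESeq2 1.42.0, limma 3.58.1 (voom with sample weights), leaving out mitochondrially encoded genes, the libraries richest in muscle markers or each replicate, the compared libraries alone, and a replicate block; totals of nuclear-encoded counts alone was chosen after seeing the data. Libraries within a group differed by chi-square per degree of freedom of 11.4 to 99, so none is a duplicate.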

Additional observations from a re-analysis of the deposited data

Results flagged for a closer look

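The response to cold differed between genotypes, by a test of the difference itself, in 7 of 48 Nduf genes. Of these 4 were higher and 3 lower, while 10.6% of all genes were higher and 12.9% lower. Nduf genes were thus not called more often than genes in general. The change in KO minus the change in WT was -0.74 (log2) for Ndufaf4, where WT rose and KO did not pass. It was -0.55 for Ndufa8 and -0.50 for Ndufb2, which rose in WT and did not pass in KO. It was 0.62 for Ndufaf3, 0.57 for Ndufs3 and 0.51 for Ndufs5, which fell in WT and did not pass in KO. Ndufaf7 was at 0.31 and passed in neither genotype alone. Without the libraries richest in muscle markers, the difference for Ndufaf4 was the 1 call kept. Groups of 3 pools were too small to look for single outlying pools.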

How the results depend on the processing

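Scaling decides the direction between genotypes in the cold. On library totals alone, KO against WT at room temperature had 1 subunit and 0 assembly factors lower (medians -0.13 and -0.02), beside 1267 of 15208 genes. In the cold it had 9 subunits higher and 2 lower (median 0.16) and 4 assembly factors higher and 1 lower (median 0.22). Over all genes 7881 of 15208 were higher there and 1073 lower, so 9 of 38 subunits higher is below the share of all genes. Ndufaf1 turned to 0.10, Ndufa4 to 0.08, Ndufs1 to 0.17, Ndufs7 to 0.19, Ndufv1 to 0.21 and Ndufv2 to 0.16. With cold in WT on that scale, 0 subunits rose (median -0.19) and 3 assembly factors fell (median -0.16), while 1826 of 15208 genes rose and 4813 fell. In KO 0 subunits rose, and for the difference of responses 0 subunits were lower, with medians of 0.21 (subunits) and 0.17 (assembly factors). Of 15208 genes, 801 rose in KO and 711 were lower for the difference. Over all genes, 78.9% of calls were then higher between genotypes at room temperature and 88% in the cold, against 47.9% and 48.3% with TMM; 27.5% with cold in WT against 49.8%, 54.3% in KO against 49.1%, and 77.1% for the difference of responses against 45.1%. The median gene moved to 0.22 and 0.45 between genotypes, and the subunits were at -0.35 and -0.29 relative to it. These distances could hardly change, since a change of scale shifts all genes by about the same amount.

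Totals of nuclear-encoded counts alone, chosen after seeing the data, gave 5 subunits and 0 assembly factors lower at room temperature (medians -0.19 and -0.07). In the cold they gave 5 subunits higher, 4 lower (median 0.05) and 3 assembly factors higher (median 0.10), with Ndufs1 at 0.05, Ndufs7 at 0.08, Ndufv1 at 0.10 and Ndufv2 at 0.04. In WT 0 subunits rose and 7 fell (median -0.14), and 3 assembly factors fell (median -0.11). The difference of responses had 7 subunits higher and 1 lower (median 0.15) and an assembly factor median of 0.11. Of 15085 genes on that scale, 1888 were lower at room temperature, and 6954 were higher and 1719 lower in the cold. In WT 2336 rose and 4814 fell, and for the difference 2667 were higher and 1086 lower.

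Without the 2 libraries richest in muscle markers, 0 subunits were higher and 6 lower at room temperature (median -0.24) and 0 assembly factors were lower (median -0.16). Over all genes 1946 of 15386 were then lower and 1620 higher. In WT 2 subunits and 2 assembly factors rose, in KO 0 subunits rose, and for the difference 0 subunits were higher, 0 lower and 0 assembly factors higher. Of 15386 genes, 2848 rose in WT and 586 in KO, and for the difference 840 were higher and 1063 lower. These fits leave 2 pools in each room temperature group, and the cause of the losses was not tested.

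With DESeq2, 2 subunits fell in KO in the cold and 4 were lower for the difference. Of 15208 genes, 1276 and 2059 did so. With limma voom, assembly factor medians were -0.28 at room temperature, -0.02 with cold in WT and 0.04 for the difference. It called 8 subunits higher and 2 assembly factors lower with cold in WT, 6 subunits higher and 4 lower in KO, and 7 higher and 6 lower for the difference. With no filter beyond 1 count, 2 subunits and 0 assembly factors were higher in KO in the cold, 5 subunits fell in WT and 3 rose in KO. For the difference, 4 subunits and 1 assembly factor were then higher, with an assembly factor median of -0.01. Of 27353 genes in that fit, 4342 were higher in KO in the cold and 3852 fell in WT. In KO 1402 rose, and 2001 were higher for the difference. The strict filter gave 2 assembly factors higher in KO in the cold (median -0.16), 2 that fell in WT, and 1 subunit lower for the difference. Of 12186 genes, 3483 were higher in KO in the cold, 3321 fell in WT and 1808 were lower for the difference. With the compared libraries alone, 1 assembly factor was lower at room temperature, beside 2603 of 14584 genes.

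Replicate numbers 1 to 3 are shared by 3 of the groups (KO at room temperature has 4 to 6), and same-numbered pools did not deviate together (correlations of 0.05, -0.19 and 0.23 for WT across temperatures, -0.27, -0.10 and -0.16 between genotypes in the cold). With the replicate block, 18 subunits were lower and 0 assembly factors higher in KO in the cold, and 3 subunits rose and 3 fell in WT. Of 14800 genes, 3971 were lower and 3720 higher in KO in the cold, and 3303 rose and 3368 fell in WT. No paired analysis was possible because of unshared numbers for the room temperature genotypes, cold in KO and the difference.

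Leaving out 1 replicate at a time, subunits lower at room temperature ranged from 14 (without KO replicate 6) to 26, with 0 to 1 higher and medians of -0.40 to -0.28. Without KO replicate 6, 2514 of 15477 genes were lower at room temperature. Assembly factors lower there ranged from 1 to 4 (medians -0.26 to -0.19). In the cold, 17 to 23 subunits were lower and 0 to 1 higher (medians -0.32 to -0.24), with 0 to 1 assembly factors higher (medians -0.26 to -0.14). With cold in WT, 0 to 6 subunits rose and 2 to 3 fell (medians -0.03 to 0.06), and 1 to 2 assembly factors rose and 1 to 2 fell (medians -0.03 to 0.05). In KO, 0 to 2 subunits rose and 0 to 4 fell (medians 0.03 to 0.09), and the assembly factor median was -0.05 to 0.05. For the difference, 1 to 2 subunits were higher and 1 to 3 lower (medians -0.04 to 0.09), and 1 to 2 assembly factors were higher (medians -0.10 to 0.00).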
